A study of Mus musculus with 8 samples.

Results

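The trophectoderm genes examined here were 7 transcription factor genes, *Cdx2*, *Eomes*, *Elf5*, *Hand1*, *Gata3*, *Tead4* and *Tfap2a*, and 3 keratin genes, *Krt7*, *Krt8* and *Krt18*. They were chosen by name, 10 of the 19751 genes that the RefSeq accessions of the array's probes could name, and had 12 probes. The trophectoderm is the outer epithelium of the blastocyst, from which the placenta forms. In outer cells, where Hippo signaling is low, TEAD4 and its co-activator YAP turn on *Cdx2* and *Gata3*, and CDX2, EOMES and ELF5 then maintain trophoblast stem cells. KRT8 and KRT18 pair into the filaments of simple epithelia such as this one. ESCs derive from the inner cell mass and normally hold the trophoblast program down.

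Expression was measured in male VV3 ESCs, which carry a *Vasa*::Venus transgene that reports *Ddx4* (*Vasa*) and were kept in serum and LIF on mitomycin C-inactivated STO feeder cells. *L3mbtl2*-KD ESCs (4 samples) had received siRNA against *L3mbtl2*, which encodes a subunit of the PCGF6-PRC1 repressor complex, and control ESCs (4 samples) the non-silencing AllStars siRNA. The methods state that *Vasa*-positive cells were purified by FACS. In describing the comparison they name this isolation for the knockdown cells only, and whether the control cells were sorted is not stated. In such bulk samples, fewer cells of a type and less RNA per cell cannot be told apart.

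One array was used for each sample, and the number of arrays limits the precision. Levels are log2 intensities relative to the 75th percentile of the array, so that a value of 0 lies at that percentile, and they can be compared between samples but not between probes. Between 59.5 and 66.6% of the spots were well above background, fewest on *L3mbtl2*-KD replicate 4. *L3mbtl2* was at 0.27, -0.18, -0.21 and -0.31 in control replicates 1 to 4, and at -1.45, -1.26, -1.58 and -1.73 in *L3mbtl2*-KD replicates 1 to 4. The siRNA target thus fell without overlap of the groups (log2 fold change -1.40, limma adjusted p = 0.00095). *Ddx4*, the gene of the sorting reporter, rose by a log2 fold change of 2.83 (adjusted p = 4.9e-06).

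Of the 10 trophectoderm genes, 9 were bright enough to be tested, that is well above background on all arrays of a group. None of the 9 passed an adjusted p of 0.05 in limma in either direction, while 11.7% of the 13653 genes tested on the array were lower and 10.3% higher in *L3mbtl2*-KD ESCs. With a change of more than 2-fold as well, 3.21% of all genes were lower and 2.49% higher, and again none of the 9. At an unadjusted p under 0.05, limma gave 3 of the 9, *Tead4*, *Krt7* and *Krt8*, all lower, where 20.5% of all genes were lower and 18.2% higher. The one-way test named in the figure legends gave 0 of the 9 at an unadjusted p, where 19.4% of all genes were lower and 18.1% higher. The values of 8 of the 9 genes were below control, 7 with normexp background correction, which turned *Hand1* to 0.033. Their median log2 fold change was -0.48, against -0.011 over all genes tested, of which 51.6% were below control. It was -0.28 without *L3mbtl2*-KD replicate 4, -0.26 with normexp and -0.24 over the genes with probes well above background on all arrays. That last setting drops *Cdx2*, *Gata3*, *Tead4* and *Krt7*, which met the filter through the control arrays alone, where their means were higher. Such entry favors genes lower in *L3mbtl2*-KD ESCs, so the count below control and the median are a description only. The 3 keratins had a median of -0.81 and the 6 factors tested one of -0.36.

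The groups overlapped in each of the 9 genes. Over the whole array, every *L3mbtl2*-KD sample lay below every control sample for 13.8% of the genes and above for 12.6%. Samples that carry the same replicate number deviated together and are treated here as pairs, although neither the labels nor the methods state a pairing. *Cdx2*, *Eomes*, *Tead4*, *Krt8* and *Krt18* were lower in all 4 pairs, 5 of 9 genes, as were 32.8% of all genes. The median pair difference over the 9 genes was -0.48, -0.46, -0.22 and -1.23 for replicates 1 to 4. Replicate 4 held the lowest difference of 5 of the genes, and its *L3mbtl2*-KD array was the one with the fewest spots above background. The part of that array's quality in the difference was not tested.

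With the replicate number as a block, *Tead4* (adjusted p = 0.0095), *Krt8* (0.022) and *Cdx2* (0.043) passed in limma, each with a change of less than 2-fold. The same fit called 26.0% of all genes lower and 23.9% higher, so that 3 of 9 trophectoderm genes is a share near that of the array. Each pair was then left out of this fit in turn, an alternative chosen after seeing the data. *Tead4* passed every time (adjusted p 0.011 to 0.046). *Krt8* did not pass without replicate 1 (0.074), and *Cdx2* did not without replicate 1 (0.082), 2 (0.127) or 4 (0.118). Other genes passed as lower in these fits: *Gata3* (-0.82, adjusted p = 0.032) and *Krt7* (-1.23, 0.018) without replicate 1, *Krt18* (-0.50, 0.045) without replicate 2 and *Hand1* (-0.41, 0.031) without replicate 3.

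**Figure D1:**
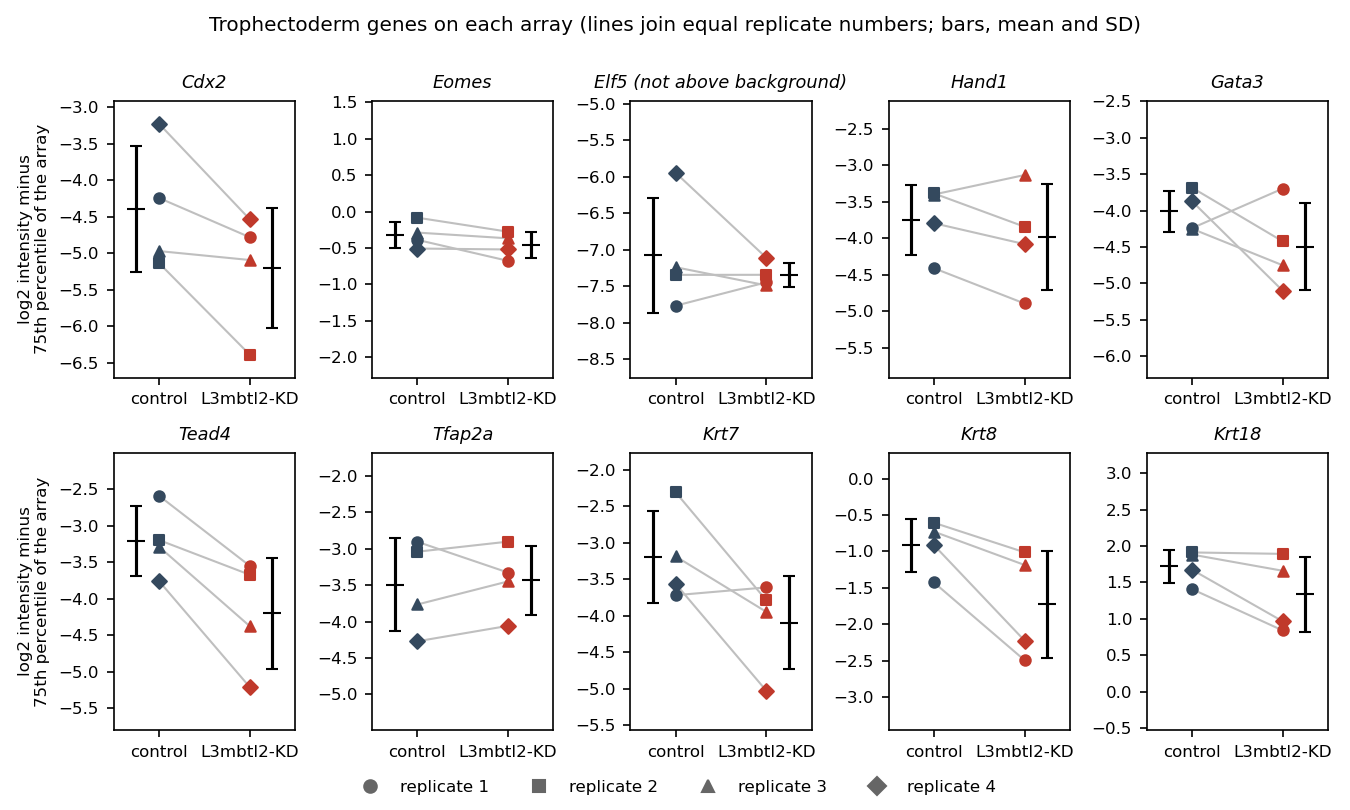
Normalized log2 intensity of the 10 trophectoderm genes (one probe each) in 4 control and 4 *L3mbtl2*-KD samples; symbols and lines mark samples of the same replicate number and bars give mean and SD. In *Tead4*, *Cdx2*, *Krt8*, *Krt18* and *Eomes* all 4 lines descend, and the groups overlap in every panel.

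**Figure D2:**
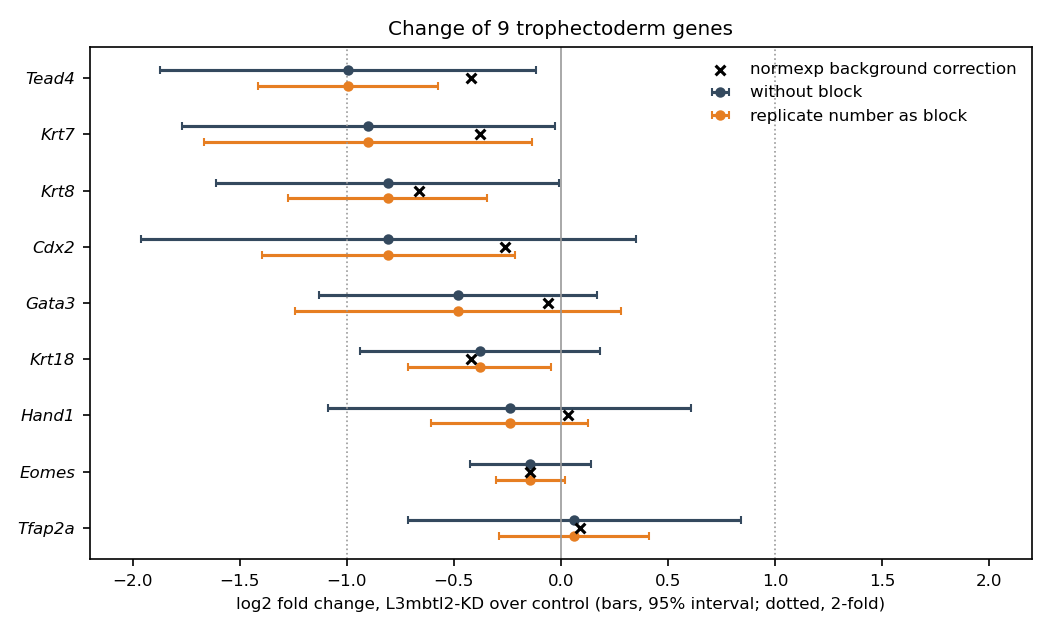
Log2 fold change of the 9 genes tested, with 95% intervals from limma without a block and with the replicate number as a block; crosses give the estimate with normexp background correction. *Tead4* has the lowest estimate (-0.99), *Tfap2a* is the only gene above 0 (0.061), and with normexp *Hand1* is above 0 too (0.033).

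*Tead4* (NM_011567) encodes the DNA-binding partner of YAP that is needed to start the trophectoderm program. Its level was -2.59, -3.20, -3.29 and -3.76 in control replicates 1 to 4, and -3.55, -3.67, -4.38 and -5.21 in *L3mbtl2*-KD replicates 1 to 4. Each *L3mbtl2*-KD sample was below the control of its number, but control replicate 4 lay below *L3mbtl2*-KD replicates 1 and 2. The means were -3.21 ± 0.48 and -4.20 ± 0.77 (SD, n = 4). This is a log2 fold change of -0.99 (95% interval -1.87 to -0.12, limma adjusted p = 0.108), which leaves 0.502 of the control intensity. The first slide, with replicates 1 and 2 of both groups, gave -0.72, and the second slide gave -1.27. With the slide as a block *Tead4* passed the threshold (adjusted p = 0.024). On *L3mbtl2*-KD replicate 4 the probe was not well above background, and without that array the log2 fold change was -0.66. With normexp, which draws dim values together, it was -0.42.

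*Cdx2* (NM_007673) encodes the caudal-type homeobox factor that sets the trophectoderm lineage. It was at -4.24, -5.13, -4.97 and -3.22 in control ESCs and at -4.78, -6.39, -5.09 and -4.53 in *L3mbtl2*-KD ESCs, by replicate number. Pairs differed by -0.54, -1.25, -0.12 and -1.31, and the samples of either group lay further apart than any pair. The log2 fold change of -0.81 had a 95% interval from -1.96 to 0.35 (limma adjusted p = 0.306), which holds both no change and one of more than 2-fold. It was -0.41 without *L3mbtl2*-KD replicate 2, where the probe was not well above background, -0.42 without control replicate 4, and -0.26 with normexp.

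*Gata3* (NM_008091) encodes a zinc-finger factor that acts beside CDX2. It was at -4.24, -3.69, -4.25 and -3.87 in control ESCs and at -3.70, -4.42, -4.75 and -5.10 in *L3mbtl2*-KD ESCs. *L3mbtl2*-KD replicate 1 was above all control samples but 1, and the other *L3mbtl2*-KD samples were below all of them. Its log2 fold change was -0.48 (limma adjusted p = 0.276; 0.241 with the replicate block). Within the first slide it was -0.097 and within the other -0.86, a difference that was not tested. The call turned on *L3mbtl2*-KD replicate 1, without which the log2 fold change was -0.75 and the adjusted p 0.049, where leaving out other arrays gave up to 0.539. Without *L3mbtl2*-KD replicate 4, on which the probe was not well above background, it was -0.28, and with normexp it was -0.062.

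*Eomes* (NM_010136) encodes a T-box factor of trophoblast stem cells that also acts in the primitive streak. It was at -0.39, -0.084, -0.29 and -0.51 in control ESCs and at -0.68, -0.28, -0.37 and -0.52 in *L3mbtl2*-KD ESCs. All pairs of this probe were lower, but by less than the spread of the control samples. The log2 fold change was -0.14 (limma adjusted p = 0.467; 0.122 with the replicate block), and its 95% interval of -0.43 to 0.14 holds no 2-fold change. It was -0.065 without control replicate 2 and -0.071 without *L3mbtl2*-KD replicate 1. A second *Eomes* probe gave -0.13, with 3 of 4 pairs lower and that of replicate 4 higher by 0.12.

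*Hand1* (NM_008213), for a bHLH factor of trophoblast giant cells that also acts in mesoderm, was at -4.41, -3.39, -3.40 and -3.79 in control ESCs. In *L3mbtl2*-KD ESCs it was at -4.90, -3.84, -3.13 and -4.08, so that the pair of replicate 3 was higher and the others lower. Its log2 fold change was -0.24 (limma adjusted p = 0.698; 0.227 with the replicate block), but 0.062 without *L3mbtl2*-KD replicate 1.

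*Tfap2a* (NM_001122948), for an AP-2 factor that also acts in surface ectoderm and neural crest, was at -2.91, -3.04, -3.77 and -4.27 in control ESCs. In *L3mbtl2*-KD ESCs it was at -3.33, -2.90, -3.45 and -4.06, with replicate 1 lower than its control and the others higher. Its log2 fold change was 0.061 (95% interval -0.72 to 0.84, limma adjusted p = 0.923), and its sign turned without *L3mbtl2*-KD replicate 2 (-0.12) or control replicate 3 (-0.029) or 4 (-0.20). A second *Tfap2a* probe was not well above background on any array.

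The same held for the one probe of *Elf5* (NM_010125), for an ETS factor whose promoter is known to be methylated in ESCs and unmethylated in trophoblast stem cells. It was at -7.77, -7.34, -7.24 and -5.94 in control ESCs and at -7.45, -7.34, -7.49 and -7.11 in *L3mbtl2*-KD ESCs. No fold change is given for *Elf5*, since both groups were at background.

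Among the keratins, *Krt8* and *Krt18* are neighbors on chromosome 15 in RefSeq (GRCm38.p6), with the loci *Gm36026* and *Gm41404* between them, and their starts lie 23874 bases apart and point away from each other. *Krt7* is in the same cluster, 31 genes from *Krt8*. Promoters from RefSeq matched 8 of the 10 genes (10 windows), all but *Hand1* and *Tead4*. The 250 bases before the start are shown in gene orientation for *Krt8* and *Krt18*, whose levels went together over the arrays, and to set beside them for *Krt7*, *Cdx2* and *Elf5*. Capitals mark matches to the motifs searched. The windows are chr15:102004343-102004592 (minus strand) for *Krt8*, chr15:102027966-102028215 (plus strand) for *Krt18*, chr15:101412153-101412402 (plus strand) for *Krt7*, chr5:147307250-147307499 (minus strand) for *Cdx2* and chr2:103411848-103412097 (plus strand) for the first start of *Elf5*.
Krt8: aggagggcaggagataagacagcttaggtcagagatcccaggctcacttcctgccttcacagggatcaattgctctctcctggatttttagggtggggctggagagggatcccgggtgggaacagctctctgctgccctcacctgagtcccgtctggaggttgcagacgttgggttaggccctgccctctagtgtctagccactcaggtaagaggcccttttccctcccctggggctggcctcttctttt
Krt18: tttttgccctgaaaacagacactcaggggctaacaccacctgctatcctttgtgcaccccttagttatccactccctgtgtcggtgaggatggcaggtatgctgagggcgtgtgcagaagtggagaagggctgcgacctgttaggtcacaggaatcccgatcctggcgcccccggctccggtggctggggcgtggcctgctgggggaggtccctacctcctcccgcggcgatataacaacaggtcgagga
Krt7: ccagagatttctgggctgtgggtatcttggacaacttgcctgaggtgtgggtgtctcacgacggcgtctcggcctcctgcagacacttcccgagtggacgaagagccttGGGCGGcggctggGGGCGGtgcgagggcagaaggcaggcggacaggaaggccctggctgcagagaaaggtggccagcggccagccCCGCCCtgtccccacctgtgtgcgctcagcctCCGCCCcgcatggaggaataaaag
Cdx2: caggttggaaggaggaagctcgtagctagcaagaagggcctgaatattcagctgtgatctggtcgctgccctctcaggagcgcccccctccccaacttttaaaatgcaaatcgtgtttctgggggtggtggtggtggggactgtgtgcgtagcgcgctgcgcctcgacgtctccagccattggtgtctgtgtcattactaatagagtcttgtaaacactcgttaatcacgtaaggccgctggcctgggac
Elf5: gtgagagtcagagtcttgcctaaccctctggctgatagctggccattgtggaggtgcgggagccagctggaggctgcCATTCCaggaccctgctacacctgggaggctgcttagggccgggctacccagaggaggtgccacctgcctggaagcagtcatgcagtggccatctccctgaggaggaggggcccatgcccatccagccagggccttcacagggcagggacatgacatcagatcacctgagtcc

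The motifs, searched on both strands, were the E-box CACGTG bound by MAX dimers, the E2F core GCGGGAA, the T-box site AGGTGTGA, the TEAD hexamer GGAATG and, added after the windows were seen, the GC box GGGCGG, which can run into an E2F core. The first 3 were in none of the 10 windows, and in 6.02, 3.82 and 1.12% of the 32851 windows of the table. The TEAD hexamer was in 1 of the 10, the *Elf5* window shown, on the other strand 173 bases before the start, and in 12.6% of all windows. The GC box was in 4 of the 10, with 4 matches in *Krt7*, 2 in *Gata3* and 1 in each window of *Tfap2a*, and in 32.7% of all windows. The windows of *Krt8*, *Krt18* and *Cdx2* held none of the motifs. No match says only that these letters are not in the window.

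*Krt8* (NM_031170) was at -1.42, -0.61, -0.73 and -0.91 in control ESCs and at -2.49, -1.01, -1.18 and -2.22 in *L3mbtl2*-KD ESCs. *L3mbtl2*-KD replicates 1 and 4 lay below all control samples, whereas replicates 2 and 3 lay above control replicate 1. The means were -0.92 ± 0.36 and -1.73 ± 0.74 (SD, n = 4). The log2 fold change was -0.81 (95% interval -1.61 to -0.0090, limma adjusted p = 0.145), with -0.74 on the first slide and -0.88 on the other. RefSeq lists a *Krt8* pseudogene, which the probe may not tell from *Krt8*.

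*Krt18* (NM_010664) was at 1.41, 1.91, 1.88 and 1.67 in control ESCs and at 0.84, 1.89, 1.66 and 0.97 in *L3mbtl2*-KD ESCs. Here too replicates 1 and 4 gave the low *L3mbtl2*-KD values, and replicate 2 nearly equalled its control, with a difference of -0.020. The log2 fold change was -0.38 (limma adjusted p = 0.322; 0.069 with the replicate block), and -0.21 without *L3mbtl2*-KD replicate 1.

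*Krt7* (NM_033073), a keratin of trophoblast and of ducts, was at -3.72, -2.31, -3.19 and -3.56 in control ESCs and at -3.61, -3.79, -3.95 and -5.03 in *L3mbtl2*-KD ESCs. The pair of replicate 1 differed by 0.11 and the others by -1.48, -0.76 and -1.47, and control replicate 1 lay within the *L3mbtl2*-KD range. The log2 fold change was -0.90 (95% interval -1.77 to -0.028, limma adjusted p = 0.138; 0.064 with the replicate block). It was -0.59 without *L3mbtl2*-KD replicate 4, on which the probe was not well above background, and -0.38 with normexp.

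Over the 8 arrays, *Krt8* followed *Krt18* closely, with a Pearson r of 0.980. Among 13607 genes compared with *Krt18*, the member of highest signal, this was rank 4, after *Vrk2* (0.996), *Kmt2e* (0.990) and *Stam* (0.982) and before *Map3k1* (0.965). These values are a description, since the arrays share group, slide and replicate number and the highest of so many correlations is high by choice. For *Krt7* r was 0.61, and for the factors it ranged from -0.31 for *Cdx2* to 0.84 for *Eomes*.

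**Figure D3:**
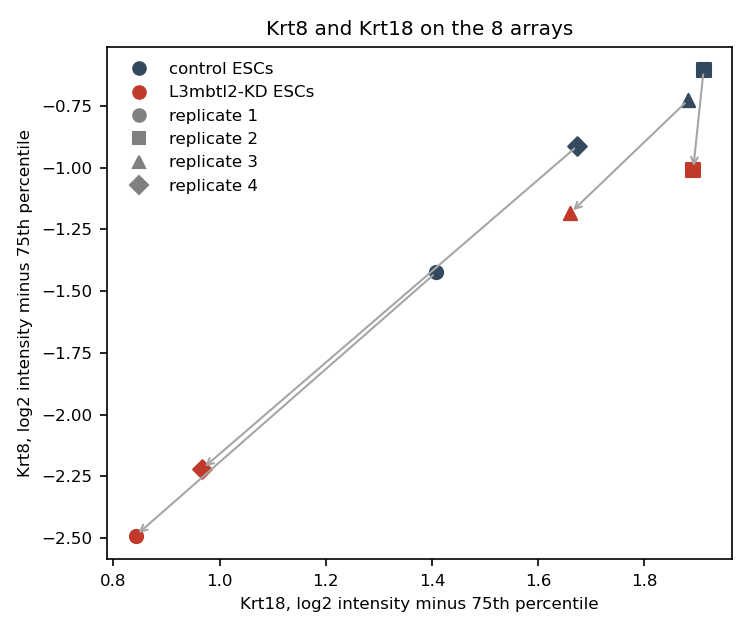
Normalized log2 intensity of *Krt8* against *Krt18* on the 8 arrays, with arrows from the control to the *L3mbtl2*-KD sample of the same replicate number. The arrows of replicates 1 and 4 are long (*Krt8* differences of -1.07 and -1.31), and those of replicates 2 and 3 are short (-0.40 and -0.46).

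Among 8 other keratins tested, *Krt19* (log2 fold change -1.63, adjusted p = 0.031) and *Krt42* (-1.23, 0.028) fell, and *Krt23* (1.17, 0.0054) rose. *Krt19*, a keratin of trophectoderm too, was at 0.42, 1.42, 1.63 and 1.28 in control ESCs and at -1.44, 0.23, 0.29 and -0.83 in *L3mbtl2*-KD ESCs. In *Krt19* and *Krt42*, as in *Krt8* and *Krt18*, replicates 1 and 4 were the lowest *L3mbtl2*-KD samples and replicate 1 the lowest control. The calls of *Krt19* and *Krt42* were lost without *L3mbtl2*-KD replicate 1 or 4 or control replicate 2, 3 or 4 (adjusted p 0.054 to 0.086 and 0.065 to 0.079). The median of the list was -0.26, and with the replicate block 3 were lower and 2 higher.

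TEAD4 acts through the Hippo pathway, of which, with the other TEAD factors, 3 of 16 genes tested fell and 2 rose (median -0.23; 8 lower and 3 higher with the replicate block). *Vgll4*, a TEAD co-factor that competes with YAP, fell at least 2.27-fold. It was at background on all *L3mbtl2*-KD arrays, and bounds such as this one set the control mean against the lowest signal well above background there, or the probe's own signal if higher. They depend on how background was subtracted: under normexp *Vgll4* had a fitted log2 fold change of -0.42, which is less than its bound. *Amot* (-1.26, adjusted p = 0.035), for an angiomotin that binds YAP, and *Amotl1* (-0.53, 0.0096) fell too, while the kinase gene *Lats2* (0.58, 0.039) and its activator *Mob1b* (0.92, 0.028) rose. A second *Lats2* probe was at -0.24 (0.435). The call of *Amot* was lost without replicate 3 or 4 of either group, *L3mbtl2*-KD replicate 1 or control replicate 2 (adjusted p 0.063 to 0.084), and that of *Mob1b* without *L3mbtl2*-KD replicate 2, 3 or 4 or control replicate 4 (0.050 to 0.074). That of *Lats2* was lost without any one array but *L3mbtl2*-KD replicate 2 (0.055 to 0.102), and with normexp *Lats2* (0.055) and *Mob1b* (0.088) did not pass. *Yap1* was at 0.013 (0.927) and *Tead2* at -0.50 (0.059; 0.0056 with the replicate block), which passed without *L3mbtl2*-KD replicate 4 (0.032), and also under normexp (0.039) or quantile normalization (0.034).

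Of 5 known YAP and TEAD targets, *Axl* (-1.74, adjusted p = 0.0012) and *Ankrd1* (at least 1.95-fold) fell, both of which fibroblasts also express. *Ccn2* (-0.041, 0.952), *Ccn1* (0.056, 0.947) and *Ajuba* (0.56, 0.073; 0.0056 with the replicate block) did not pass, and the median was -0.041. That median is the value of *Ccn2*, whose sign turned with the array left out. It was 0.25 without control replicate 2 and -0.30 without *L3mbtl2*-KD replicate 2. Without control replicate 1, *Ajuba* passed as higher (0.73, 0.014).

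Of 12 other factors and receptors of trophoblast, *Gata2* fell (-0.56, adjusted p = 0.043), and 6 were lower with the replicate block (median -0.22). The call of *Gata2* was lost without replicate 1, 2 or 3 of control or replicate 1, 2 or 4 of *L3mbtl2*-KD (0.065 to 0.113), and with normexp (0.080). With normexp 3 of the 12 were lower. One of them was *Gcm1*, a driver of syncytiotrophoblast, which was at -0.68 (0.097; 0.024 with the replicate block), and at -0.76 (0.044) with normexp and -0.89 (0.032) without control replicate 2. *Esrrb*, which ESCs share with trophoblast stem cells, was at -0.23 (0.299).

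Of 14 genes of differentiated trophoblast and placenta, 13 had a named probe and 3 were tested. None of the 3 passed in limma, where 1 had an unadjusted p under 0.05, nor in the one-way test named in the figure legends, with 0 at an unadjusted p. The placental lactogen gene *Prl3b1* was at -0.73 (adjusted p = 0.340; 0.290 with the replicate block), a value that rested on control replicate 2 and was -0.17 without it. *Tpbpa*, *Ctsq*, *Prl5a1*, *Syna* and *Hsd3b6* were well above background on none of the arrays.

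The trophectoderm builds tight junctions and pumps fluid into the blastocoel, and of 16 genes of these functions 5 fell and 1 rose (median -0.28; 8 lower and 1 higher with the replicate block). The aquaporin gene *Aqp8* (-3.33, adjusted p = 0.00032) and the claudin gene *Cldn4* (-1.83, 0.00098) fell most, beside *Atp1b1* (-0.93, 0.0061), *Cdh1* (-0.49, 0.0054) and *Epcam* (-0.34, 0.023), and *Ocln* (0.44, 0.028) rose. In 2 of the 4 *L3mbtl2*-KD samples *Aqp8* was at background, so the size of its change is uncertain, and with normexp it was -1.85. The call of *Epcam* was lost without *L3mbtl2*-KD replicate 1 or 2 or control replicate 3 or 4 (0.053 to 0.067), and that of *Ocln* without any one array but control replicate 1 (0.055 to 0.065).

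**Figure D4:**
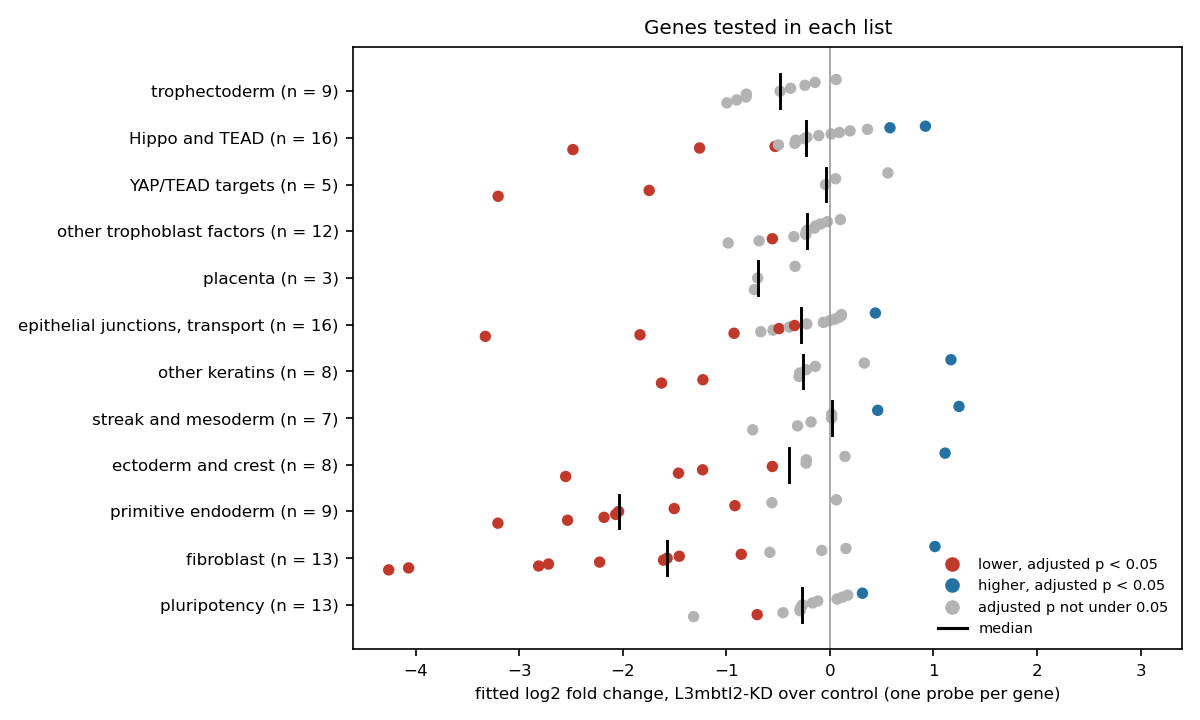
Fitted log2 fold change of each gene tested in the 12 lists (one probe per gene), red for lower and blue for higher at a limma adjusted p under 0.05, with the list median as a bar. The 9 trophectoderm genes are grey and lie between -0.99 and 0.061, while the primitive endoderm and fibroblast medians are -2.04 and -1.57; genes at background in *L3mbtl2*-KD ESCs are plotted at their fitted value.

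Other cell types that use some of these genes were followed through their markers. Primitive endoderm, which also uses KRT8 and KRT18, had 7 of 9 genes tested that fell (median -2.04, or -1.50 with *Foxa2* at its bound of at least 2.45-fold; 8 lower with the replicate block). Examples were *Cubn* (-3.20, adjusted p = 0.00054), *Dab2* (-2.53, 0.0021) and *Lama1* (-2.18, 0.00063), while *Gata6* was at 0.064 (0.883), and with normexp *Foxa2* did not pass (0.052). In 3 of the 4 *L3mbtl2*-KD samples *Dab2* was at background, so the size of its change is uncertain, and with normexp it was -0.96. The summed intensity of the 9 primitive endoderm genes tested, in multiples of the 75th percentile, was led by *Lama1*. It was 17.0, 13.7, 13.9 and 18.2 in control ESCs and 4.50, 5.69, 4.14 and 3.06 in *L3mbtl2*-KD ESCs. *Afp* was at background throughout. Such sums weight probes by their brightness and largely follow the brightest one, and each is compared between samples only.

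Of 13 fibroblast genes, which feeder cells express, 9 fell and *Loxl1* (1.01, adjusted p = 0.00097) rose (median -1.57; 9 lower and 1 higher with the replicate block). The part of feeder cells, or of the sort for *Vasa*-positive cells, in these changes was not tested. *Dcn* fell at least 12.1-fold and *Col3a1* at least 7.81-fold, and *Tagln* was at -0.58 (0.173), but at -0.88 (0.0023) without control replicate 1. The call of *Col6a1* (-1.61, 0.047) was lost without any one array but control replicate 1 or *L3mbtl2*-KD replicate 2 (0.073 to 0.108), and with normexp (0.062). The sum was 6.11, 13.5, 12.0 and 15.1 in control ESCs and 5.60, 5.66, 6.30 and 6.35 in *L3mbtl2*-KD ESCs, led by *Tagln*, with *Lum*, *Postn*, *Prrx1* and *Fap* at background throughout. Control replicate 1 was the lowest control in this sum, as it was for *Krt8* and *Krt18*. Among *L3mbtl2*-KD samples the sum was highest in replicate 4, where *Krt8* (-2.22) and *Krt18* (0.97) were below their values in replicates 2 and 3. The same sum over the 9 trophectoderm genes, led by *Krt18*, was 4.32, 6.0, 5.57 and 4.88 in control ESCs and 3.01, 5.45, 4.76 and 3.11 in *L3mbtl2*-KD ESCs, and the groups overlapped, although it was lower in all 4 pairs (-1.31, -0.55, -0.81 and -1.77). The part of primitive endoderm or feeder cells in the values of the trophectoderm genes was not tested.

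**Figure D5:**
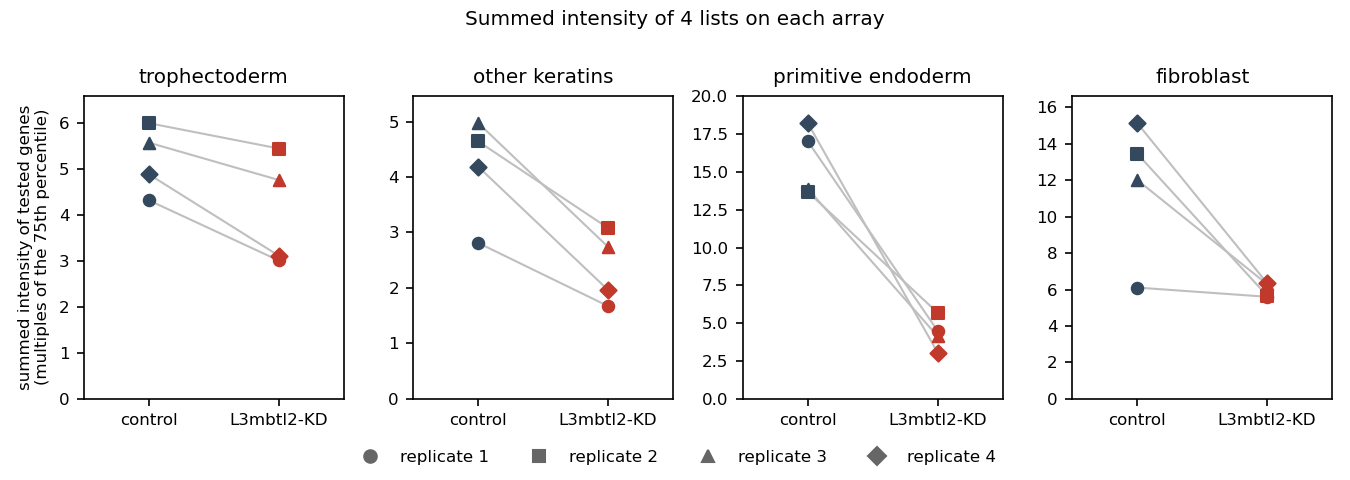
Summed intensity of the tested genes of 4 lists on each array, in multiples of the 75th percentile of the array, with lines between samples of the same replicate number. The primitive endoderm sum separates the groups (13.7 to 18.2 against 3.06 to 5.69), and the trophectoderm sum overlaps (4.32 to 6.0 against 3.01 to 5.45) but is lower in all 4 pairs.

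In mesoderm, where *Eomes* and *Hand1* also act, *Fgf8* (1.25, adjusted p = 0.0015) and *Msx1* (0.46, 0.018) rose out of 7 genes tested (median 0.017; 2 lower and 2 higher with the replicate block), and *Tbx6* was at -0.31 (0.068; 0.019 with the replicate block), or -0.38 (0.047) without *L3mbtl2*-KD replicate 3. The call of *Msx1* was lost without replicate 3 of *L3mbtl2*-KD (0.052) or of control (0.053). In surface ectoderm and neural crest, where *Gata3* and *Tfap2a* also act, 4 of 8 genes fell, *Gata2*, *Pax3* (-1.23, 0.019), *Snai2* (at least 2.42-fold) and *Sox9* (at least 2.16-fold), and *Trp63* (1.11, 0.013) rose (median -0.39; 5 lower and 1 higher with the replicate block). *Gata2* and *Msx2* of this list are also among the trophoblast factors above. In 2 of the 4 *L3mbtl2*-KD samples *Pax3* was at background, so the size of its change is uncertain, and with normexp it was -0.42. The call of *Pax3* was lost without control replicate 3 (0.056) and that of *Snai2* with normexp (0.065), *Gata2* passed without *L3mbtl2*-KD replicate 3 or control replicate 4 but not without any other array (0.065 to 0.113), and *Sox10* was at -0.23 (0.634).

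Of 13 ESC markers, *Klf4* (-0.70, adjusted p = 0.027) fell and *Dppa4* (0.31, 0.030) rose (median -0.26; 5 lower and 2 higher with the replicate block), and *Dppa5a* (0.17, 0.298; 0.032 with the replicate block) and *Utf1* (0.12, 0.617) did not pass. The call of *Klf4* was lost without replicate 3 of either group or *L3mbtl2*-KD replicate 4 (0.068 to 0.071), and that of this *Dppa4* probe without any one array but *L3mbtl2*-KD replicate 1 or 2 (0.055 to 0.086) and with normexp (0.061). Several list calls also missed the threshold under other choices. In the one-way test named in the figure legends the adjusted p of *Krt19*, *Krt42*, *Amot*, *Lats2*, *Mob1b*, *Gata2*, *Pax3*, *Klf4* and *Col6a1* was 0.056 to 0.109. Without a filter on dim probes that of *Krt19*, *Krt42*, *Amot*, *Lats2*, *Mob1b*, *Gata2*, *Epcam*, *Ocln*, *Klf4*, *Dppa4* and *Col6a1* was 0.064 to 0.103, and with quantile normalization that of *Gata2* was 0.097 and that of *Col6a1* 0.065. Other list genes, not called on all arrays without a block, passed under such choices. *Id2* passed as lower without control replicate 1 (-1.32, 0.0020), with normexp (0.0497) and with an intensity trend (0.049), and *Nanog* without *L3mbtl2*-KD replicate 4 (-1.74, 0.027). Without *L3mbtl2*-KD replicate 2, *Cldn7* (-0.83, 0.039) and *Stk3* (-0.41, 0.0497) passed as lower and *Stk4* (0.45, 0.035) as higher. *Tdgf1* (-0.28) passed in the one-way test (0.044) and with an intensity trend (0.025).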

How the data were processed

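For every spot the authors deposited an intensity from which the scanner software had subtracted background, and beside it a log2 table (75 percentile shift in GeneSpring). That table is centred on each probe's median, and so centred the values used here correlated with it at 0.999 or more on each array.

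Control spots and outlier spots were dropped and a probe's spots averaged. RefSeq accessions named 26055 of 39429 probes. The 23525 probes that passed the background filter were fitted without a block in limma 3.58.1 (lmFit, eBayes; R 4.3.3), and p-values were adjusted over all of them (Benjamini-Hochberg). Any probe could call a gene, and the one of highest mean signal gave its value. Of each list the 2 brightest genes and up to 2 with the largest changes past 2-fold were named, and others after their values were seen; a few genes under this rule are not reported here. Members and lists were chosen with earlier results of these data known. Normexp used median spot intensities in place of the planned means.

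Deviations from group means correlated at 0.377 to 0.582 between samples of one replicate number and at -0.437 to 0.247 between others, and the pairs are inferred from this. Samples of one replicate number also lay at neighboring positions of one slide, so a shared culture and a shared place cannot be told apart. The replicate block called 3 trophectoderm genes and the fit without it 0. Each of the 2 slides held both groups, at positions the groups did not share, so position and siRNA cannot be told apart.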

Additional observations from a re-analysis of the deposited data

Results flagged for a closer look

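By Dixon's ratio of gap to range, 1 sample stood far from the rest of its group in 5 of 90 groups, where chance gives about 4.5, and 4 of the 5 are given. None was a trophectoderm gene. In control ESCs these were *Ccn2* in replicate 2 (ratio 0.892; 2.25 against a mean of 1.09 in the others), *Ajuba* in replicate 1 (0.966; 1.66 against 0.98) and *Tagln* in replicate 1 (0.860; 1.73 against 2.94). In *L3mbtl2*-KD ESCs it was *Dab2* in replicate 1 (0.903; -4.42 against -5.53), the only 1 of these arrays on which its probe was well above background, so that the others are background readings.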

How the results depend on the processing

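The count of trophectoderm genes lower at an adjusted p under 0.05 was 0 and became 1 with the slide as a block (*Tead4*; 15.4% of all genes were lower there) and 3 with the replicate block. Leaving out 1 array gave 0 to 1 (*Gata3* without *L3mbtl2*-KD replicate 1, with 9.27% of all genes). In the replicate block without replicate 1, 2, 3 or 4 of both groups, chosen after seeing the data, it was 3, 3, 4 and 2 of 9, of genes that changed between these fits, beside 20, 20.3, 16.1 and 20.2% of all genes. With more than 2-fold it was 2, 1, 1 and 0, beside 3.54, 3.58, 3.32 and 3.04%. The cause was not tested. Normexp, quantile normalization, the authors' table, no filter, a stricter filter, an intensity trend, the one-way test, each slide alone, a threshold of 1.5-fold and one probe per gene gave 0. No trophectoderm gene was called higher in any of these.

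The sign turned for *Hand1*, to 0.033 with normexp and to 0.062 without *L3mbtl2*-KD replicate 1 (leaving out 1 array, -0.53 to 0.062), and for *Tfap2a*, to -0.14 on slide 1 alone and -0.024 in the replicate block without replicate 3 (leaving out 1 array, -0.20 to 0.27; -0.12 without *L3mbtl2*-KD replicate 2 and -0.029 without control replicate 3). The median over the genes tested was below 0 throughout, from -0.72 (replicate block without replicate 1, slide 2 alone) to -0.24 (probes well above background on all arrays, which drops *Cdx2*, *Gata3*, *Tead4* and *Krt7*). Signal over background limits *Elf5* and these 4 genes, each at background on 1 *L3mbtl2*-KD array and tested through the control group alone.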
